A study of Mus musculus with 6 samples.

Results

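The 9 genes described here read out the last steps of canonical Wnt signalling in mouse forelimb bud ectoderm, the epithelium that covers the limb bud. They were chosen by name, with earlier results of these data known. They are Ctnnb1 (β-catenin), the TCF/LEF factors Tcf7, Tcf7l1, Tcf7l2 and Lef1, and the direct targets Axin2, Nkd1, Nkd2 and Notum. All 9 were found by symbol among the 49452 genes of the table, and all 9 passed the filter on low values (at least 1 FPKM in at least 3 libraries), as did 12133 genes in all. FPKM counts sequenced fragments relative to all those mapped in a library and to the length of the gene's transcripts.

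The study compared 3 Sp8 null with 3 wild-type embryos at E10.5, and each library was the polyadenylated RNA of the ectoderm of both forelimbs of 1 embryo. Sp8 encodes an Sp-family DNA-binding protein that the limb ectoderm needs to build the apical ridge. The null embryos came from intercrosses of mice heterozygous for an Sp8 allele called Sp8-Cre-ERT2, and the wild-type embryos from C57BL/6 crosses, so cross and genotype cannot be told apart. No agent was given to either group, as far as the labels say, and the background strain of both is labelled C57BL6J. Sp8 itself was at 0.766, 0.460 and 1.14 FPKM in Sp8 null embryos 1, 2 and 3, and at 8.35, 10.97 and 13.5 FPKM in wild-type embryos 1, 2 and 3, each library on the side its label gives. The files hold no read counts, so depth is unknown. An estimate from low FPKM values put the libraries at 0.844 to 1.04 times the depth of wild-type embryo 1.

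In canonical Wnt signalling, β-catenin is degraded in the cytoplasm by a complex built on Axin and Apc until a Wnt ligand binds Frizzled and Lrp receptors. Stabilised β-catenin enters the nucleus and binds TCF/LEF proteins, which recognise DNA through an HMG box and recruit Groucho/TLE corepressors when β-catenin is absent. Tcf7 and Lef1 act mostly as activators with β-catenin, Tcf7l1 mostly as a repressor, and Tcf7l2 as either. Axin2, Nkd1, Nkd2 and Notum are induced by the pathway and restrain it: Axin2 rebuilds the destruction complex, the Naked cuticle proteins bind Dishevelled, and Notum is a secreted enzyme that removes the lipid from Wnt ligands. In the limb bud, β-catenin signalling in the ventral ectoderm is needed to form the apical ectodermal ridge.

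Start regions are shown for 3 members because the results turn on them: Tcf7 was the one member called, Axin2 is the standard target, and the Lef1 start inside the gene was the one start region of a member that held the TCF/LEF core motif. Each is the 250 bases before an annotated start, 5′ to 3′, from RefSeq on GRCm38.p6, where 8 of the 9 members were matched with 14 starts. Capitals mark GGGCGG (the GC box bound by Sp-family proteins) or CTTTGA (the core of the TCF/LEF site), each searched on both strands, so that TCAAAG is the core read on the other strand.
Tcf7, chr11:52283015-52283264, minus strand: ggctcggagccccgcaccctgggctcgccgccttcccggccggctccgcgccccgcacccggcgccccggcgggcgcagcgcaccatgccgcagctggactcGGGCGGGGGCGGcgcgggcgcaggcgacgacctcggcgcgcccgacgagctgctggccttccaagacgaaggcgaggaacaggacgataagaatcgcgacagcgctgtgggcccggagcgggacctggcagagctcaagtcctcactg
Axin2, chr11:108920099-108920348, plus strand: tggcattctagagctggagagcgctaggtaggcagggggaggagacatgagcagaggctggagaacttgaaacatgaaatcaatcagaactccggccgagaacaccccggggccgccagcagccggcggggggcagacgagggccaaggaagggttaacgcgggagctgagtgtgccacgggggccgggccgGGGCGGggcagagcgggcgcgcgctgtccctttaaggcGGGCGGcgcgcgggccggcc
Lef1 internal start, chr3:131156044-131156293, plus strand: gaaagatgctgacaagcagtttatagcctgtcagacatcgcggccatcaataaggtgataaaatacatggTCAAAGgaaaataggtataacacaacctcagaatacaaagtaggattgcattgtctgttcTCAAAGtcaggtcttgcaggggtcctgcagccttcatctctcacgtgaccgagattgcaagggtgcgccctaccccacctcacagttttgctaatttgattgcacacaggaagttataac
The Tcf7 region shown held 2 GC boxes side by side, at 148 and 142 bases before the start. That of Axin2 held 2, at 58 and 20 bases before it. Another Tcf7 start region, not shown, held 1 GC box, at 60 bases before its own start. A GC box lay in 10 of the 14 member regions, or in a region of 6 of the 8 members, since regions of Ctnnb1 and of Lef1 overlap and share boxes, and in 32.7% of all 32851 promoters of the same length. The TCF/LEF core lay in 1 of the 14, at 180 and 120 bases before the internal Lef1 start, and in 13.8% of all promoters. The Tcf7 region is not only upstream sequence: an ATG lay 165 bases before the annotated start, and the frame it opens ran on without a stop into the annotated transcript for 419 codons in all. The annotated transcript joined there therefore begins inside that reading frame. Both GC boxes marked in the Tcf7 region lie after this ATG, inside the same frame. A match is a description of the letters and not a bound site.

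Of the 9 members, 1 was called as differing between the genotypes, Tcf7, which was lower in Sp8 null, where 6.83% of all tested genes were called in either direction, 5.15% as lower and 1.68% as higher (limma on log2(FPKM + 1), Benjamini-Hochberg adjusted p under 0.05). An unadjusted p under 0.05 was found for 2 members, Tcf7 and Nkd2, and for 24.0% of all tested genes. Groups did not overlap for the same 2 members, and for 29.8% of all tested genes. The median log2 fold change was 0.15 over the 9 members and -0.06 over all tested genes, with 6 members higher and 3 lower in mean. Where nothing else is said, fold changes are Sp8 null minus wild type on the log2(FPKM + 1) scale.

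**Figure D1:**
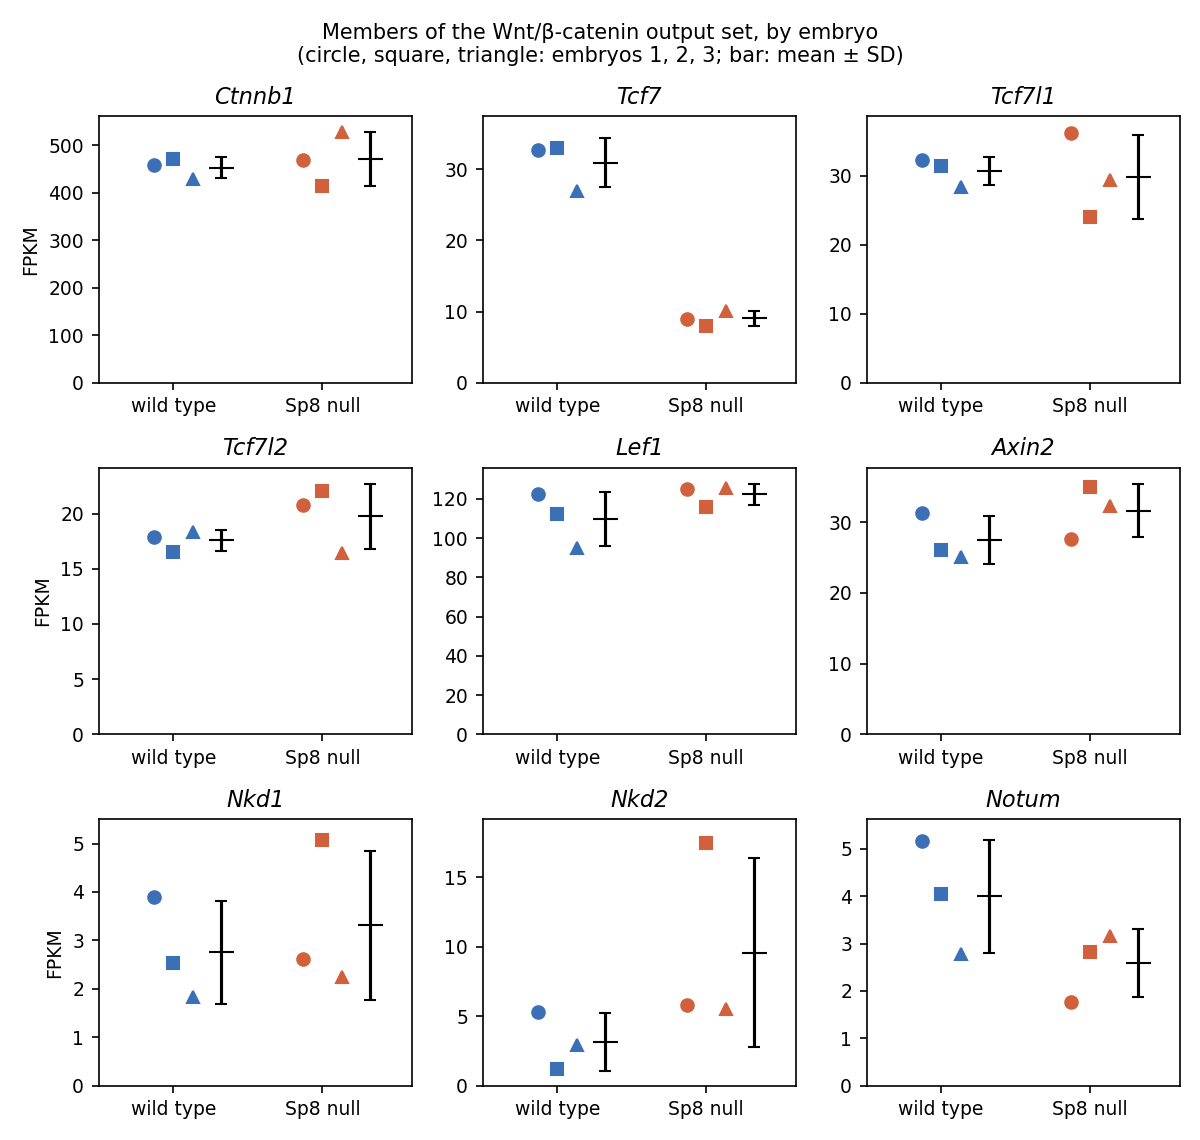
FPKM of each member (vertical axes, linear from 0) in wild-type (blue) and Sp8 null (red) embryos, with 1 point per embryo and the mean ± SD of 3 embryos beside the points. Tcf7 falls from between 27.0 and 33.0 FPKM to between 7.995 and 10.2 FPKM, and Sp8 null embryo 2 stands apart for Nkd1 and Nkd2.

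β-Catenin (Ctnnb1, ENSMUSG00000006932, GRCm38, chromosome 9, 120929216 to 120960507, plus strand) was the most abundant member. Its FPKM was 457, 471 and 428 in wild-type embryos 1, 2 and 3 and 468, 415 and 528 in Sp8 null embryos 1, 2 and 3. The groups overlapped, and the log2 fold change was 0.05 (95% interval -0.18 to 0.28, limma adjusted p = 0.792). Its level carries a doubt, because its exons overlap those of Ulk4 on the other strand, and Ulk4 was listed at 875 to 1315 FPKM while its wild-type mean in the authors' deposited table was only 88.2, against 23371 for Ctnnb1. The scale of these means is not given in the sources used here.

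Among the TCF/LEF factors, Tcf7 (ENSMUSG00000000782, chromosome 11, 52252371 to 52283014, minus strand), which encodes TCF1, was the one that fell. It was at 32.8, 33.0 and 27.0 FPKM in wild-type embryos 1, 2 and 3 and at 8.99, 7.995 and 10.2 FPKM in Sp8 null embryos 1, 2 and 3. Every null embryo was below every wild-type embryo, and the means were 30.9 ± 3.40 and 9.05 ± 1.08 FPKM (SD, n = 3 each), a ratio of 3.42. The log2 fold change was -1.67 (SE 0.11, limma adjusted p = 0.000299), which gave Tcf7 rank 34 of all tested genes by p and rank 60 by size of the fall. Tcf7 was called in all 17 alternatives (limma adjusted p from 0.000232 to 0.00645). A fold change of -3.19 stands for Tcf7 in the authors' deposited table. The table is per gene, so full-length Tcf7 and forms that lack the β-catenin binding part were not separated.

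Lef1 (ENSMUSG00000027985, chromosome 3, 131110471 to 131224356, plus strand), which like Tcf7 activates with β-catenin, did not follow it. Its FPKM was 122, 112 and 95.003 in wild-type embryos 1, 2 and 3 and 125, 116 and 126 in Sp8 null embryos 1, 2 and 3. The groups overlapped with the highest values in Sp8 null, and the log2 fold change was 0.16 (95% interval -0.07 to 0.39, limma adjusted p = 0.37). That interval does not reach a fall as large as the upper limit of the Tcf7 interval, -1.40.

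Tcf7l1 (ENSMUSG00000055799, chromosome 6, 72626378 to 72789254, minus strand), the repressor of the family, was at 32.2, 31.5 and 28.4 FPKM in wild-type embryos 1, 2 and 3 and at 36.2, 24.0 and 29.4 FPKM in Sp8 null embryos 1, 2 and 3. The null embryos lay on both sides of the wild-type range, and the log2 fold change of -0.06 (95% interval -0.38 to 0.27, limma adjusted p = 0.844) had no stable sign: it was 0.02 under median-of-ratios scaling and 0.04 under upper-quartile scaling. Tcf7l2 (ENSMUSG00000024985, chromosome 19, 55741820 to 55933654, plus strand) was at 17.9, 16.5 and 18.4 FPKM in wild-type embryos 1, 2 and 3 and at 20.8, 22.1 and 16.4 FPKM in Sp8 null embryos 1, 2 and 3. Its lowest value in Sp8 null was below every wild-type value and its other null values above them (log2 fold change 0.15, 95% interval -0.12 to 0.42, limma adjusted p = 0.479).

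The difference between the factors was tested on the log2 ratio of each pair within a library, over 6 pairs. The log2 ratio of Tcf7 to Lef1 was -1.87, -1.73 and -1.78 in wild-type embryos 1, 2 and 3 and -3.66, -3.70 and -3.50 in Sp8 null embryos 1, 2 and 3. All 3 null values lay below all wild-type values, with a mean difference of -1.83 (exact two-sided permutation p = 0.1, 0.2 adjusted over the 6 pairs). With 3 embryos against 3 this test cannot go below 0.1. The log2 ratios of Tcf7 to Tcf7l1 and to Tcf7l2 also separated the genotypes completely, with mean differences of -1.61 and -1.82 (exact permutation p = 0.1 each). The 3 ratios among Tcf7l1, Tcf7l2 and Lef1 overlapped, with mean differences of -0.20 for Tcf7l1 to Tcf7l2, -0.22 for Tcf7l1 to Lef1 and -0.01 for Tcf7l2 to Lef1 (exact permutation p = 0.5, 0.3 and 0.9).

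**Figure D2:**
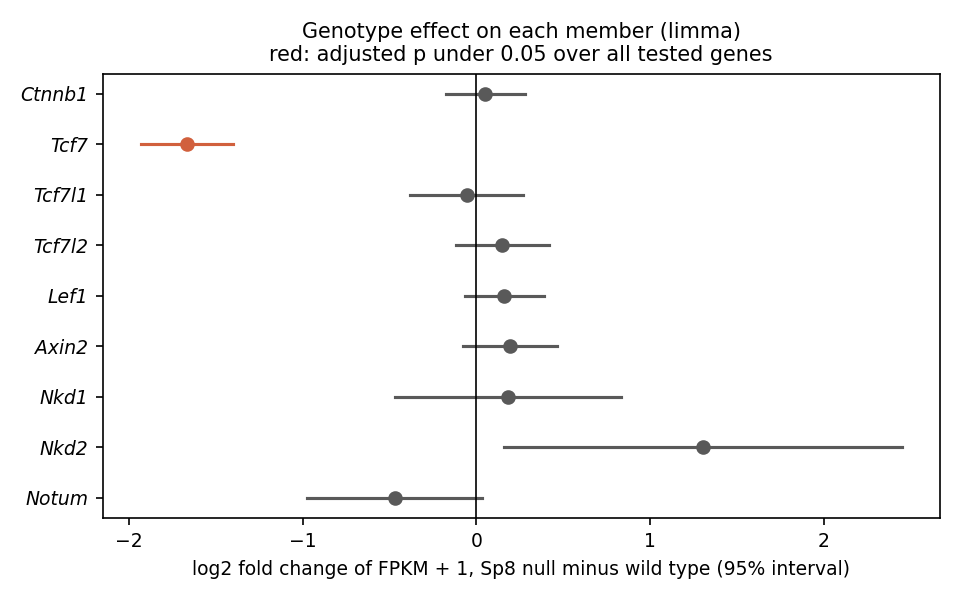
Log2 fold change of each member (horizontal axis, Sp8 null minus wild type, FPKM + 1) with its 95% interval from limma. The interval of Tcf7 lies at -1.93 to -1.40, and every other interval but that of Nkd2 spans 0.

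Because FPKM is per length, the 4 factors can be summed within a library. The sum was 205, 193 and 169 FPKM in wild-type embryos 1, 2 and 3 and 191, 170 and 182 FPKM in Sp8 null embryos 1, 2 and 3. These overlapped (exact two-sided permutation p = 0.5), and the mean difference of -8.03 FPKM turned to 1.91 FPKM under median-of-ratios scaling, to 4.90 FPKM under upper-quartile scaling and to 0.0148 FPKM without wild-type embryo 1. Tcf7 held 16.4 ± 0.647% of the sum in wild type and 4.9995 ± 0.515% in Sp8 null (SD, n = 3 each, exact permutation p = 0.1, adjusted over the 4 factors 0.2). Lef1 held 58.0 ± 1.65% and 67.6 ± 1.90% (SD, n = 3, exact permutation p = 0.1, adjusted 0.2), with no overlap in either case. The 4 shares are parts of 1 sum, so the fall of Tcf7 alone raises the share of Lef1. The ratios of Tcf7l1 and Tcf7l2 to Lef1 overlapped between the genotypes, as given above.

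The place of Lef1 in the family depended on which deposited values were used. In the authors' deposited table Lef1 had a wild-type mean of 1437 against 3022 for Tcf7, although in FPKM it was the higher, 109.8 against 30.9. Per FPKM and per kilobase of the longest annotated transcript, the wild-type mean in the authors' deposited table was 3.58 for Lef1, 21.7 for Tcf7l1, 21.6 for Tcf7l2 and 39.5 for Tcf7. Over 7256 tested genes at 5 FPKM or more in wild type the median was 28.9, and 1.94% of these genes lay below Lef1. When the means of the authors' deposited table were divided by that transcript length, Tcf7 led the family in wild type with 45.9%, followed by Tcf7l1 with 25.0%, Lef1 with 14.8% and Tcf7l2 with 14.3%. In Sp8 null the same measure gave 19.4% for Tcf7, 35.5% for Tcf7l1, 23.1% for Lef1 and 22.0% for Tcf7l2, and the sum changed by -29.0%, where FPKM gave -4.25%. The fall of Tcf7 thus stood in both measures, while the size of the change in the family's total and the leading factor did not. These means carry no replicates, Lef1 has exons that overlap an antisense gene (Gm43352) and 8 annotated transcripts of 345 to 3656 nt, and why the measures part was not tested.

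**Figure D3:**
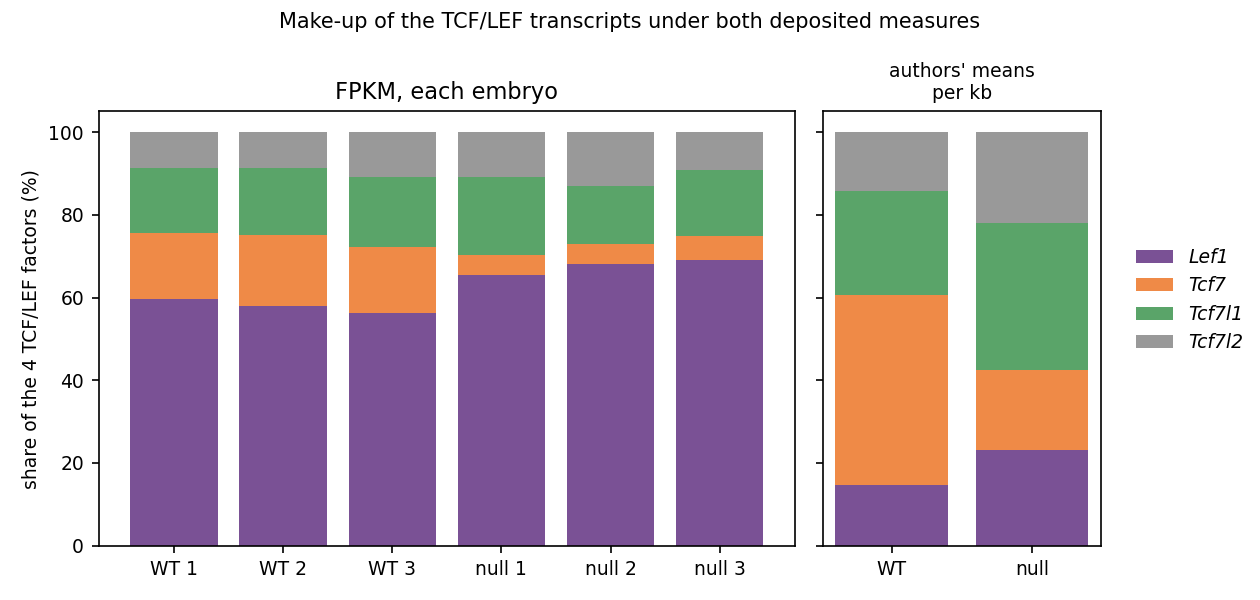
Share of each TCF/LEF factor in the sum of the 4 (vertical axis, percent), from FPKM in each embryo (left) and from the authors' group means per kilobase (right, no replicates). Tcf7 shrinks in Sp8 null in both, from 16.4% to 4.9995% in FPKM and from 45.9% to 19.4% in the authors' means, while Lef1 leads in FPKM only.

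None of the 4 feedback targets was called (limma adjusted p from 0.16 to 0.358 for Axin2, Nkd2 and Notum, and 0.734 for Nkd1). Axin2 (ENSMUSG00000000142, chromosome 11, 108920349 to 108950783, plus strand) was at 31.3, 26.0 and 25.1 FPKM in wild-type embryos 1, 2 and 3 and at 27.6, 35.0 and 32.2 FPKM in Sp8 null embryos 1, 2 and 3. Sp8 null embryo 1 lay inside the wild-type range and the other null embryos above it (log2 fold change 0.19, 95% interval -0.08 to 0.46, limma adjusted p = 0.358). The authors' deposited table gave Axin2 a fold change of 1.18 with a p-value of 0.00223, where 31.3% of all tested genes had a p-value under 0.05 in the authors' deposited table.

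Notum (ENSMUSG00000042988, chromosome 11, 120653788 to 120661175, minus strand) was the one target with a lower mean. It was at 5.16, 4.05 and 2.77 FPKM in wild-type embryos 1, 2 and 3 and at 1.77, 2.82 and 3.17 FPKM in Sp8 null embryos 1, 2 and 3. Wild-type embryo 3 lay inside the null range (log2 fold change -0.47, 95% interval -0.98 to 0.03, limma adjusted p = 0.238). Notum had a p-value of 0.0137 and a fold change of -1.37 in the authors' deposited table. Exons of Notum overlap those of the antisense genes Notumos and Myadml2os, which were below 0.5 FPKM.

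Nkd1 (ENSMUSG00000031661, chromosome 8, 88521354 to 88594884, plus strand) and Nkd2 (ENSMUSG00000021567, chromosome 13, 73818534 to 73847631, minus strand) were led by Sp8 null embryo 2. Nkd1 was at 3.90, 2.53 and 1.82 FPKM in wild-type embryos 1, 2 and 3 and at 2.61, 5.07 and 2.24 FPKM in Sp8 null embryos 1, 2 and 3. The groups overlapped (log2 fold change 0.18, 95% interval -0.47 to 0.83, limma adjusted p = 0.734), and the sign was negative without Sp8 null embryo 2 (-0.09). Nkd2 was at 5.31, 1.18 and 2.96 FPKM in wild-type embryos 1, 2 and 3 and at 5.79, 17.5 and 5.52 FPKM in Sp8 null embryos 1, 2 and 3. The groups did not overlap, but Sp8 null embryos 1 and 3 lay close to wild-type embryo 1 (log2 fold change 1.30, 95% interval 0.16 to 2.45, limma adjusted p = 0.16). Without Sp8 null embryo 2 the log2 fold change of Nkd2 was 0.81 (limma adjusted p = 0.329). The authors' deposited table gave Nkd2 a fold change of 1.38 with a p-value of 0.0355, although its group means for Nkd2, 448 and 1385, had a ratio of 3.09.

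Of 14 markers of limb mesenchyme, the cells beneath the ectoderm, 10 were highest in Sp8 null embryo 2. The other 4 were not: Msx1 and Pdgfra were highest in wild-type embryo 1, as was Meis1, which was lowest in Sp8 null embryo 2 (29.2 FPKM), and Sox9 was highest in Sp8 null embryo 1. Prrx1, a homeobox gene of limb mesenchyme, was at 53.3 FPKM there, at 13.6 and 11.96 FPKM in Sp8 null embryos 1 and 3, and at 16.5, 3.92 and 9.93 FPKM in wild-type embryos 1, 2 and 3. Nkd2 followed the same order at its ends, highest in Sp8 null embryo 2 and lowest in wild-type embryos 3 and 2. Per 100 FPKM of Prrx1, Nkd2 was at 42.7, 32.8 and 46.1 FPKM in Sp8 null embryos 1, 2 and 3 and at 32.2, 30.1 and 29.8 FPKM in wild-type embryos 1, 2 and 3. These ratios had a narrower range than Nkd2 itself, but every null ratio still lay above every wild-type ratio. The same ratio for Nkd1 was wider than Nkd1 itself, at 19.3, 9.51 and 18.8 FPKM in Sp8 null embryos 1, 2 and 3 and at 23.7, 64.6 and 18.3 FPKM in wild-type embryos 1, 2 and 3. With the mean log2 level of Prrx1, Prrx2, Tbx5 and Twist1 as a covariate, chosen after seeing the data and all highest in Sp8 null embryo 2, the log2 fold change of Nkd2 was 0.68 (limma adjusted p = 0.0522) and that of Nkd1 was -0.13, while that of Tcf7 was -1.61 (limma adjusted p = 0.00119). In bulk tissue, fewer cells of a type and less RNA per cell cannot be told apart.

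**Figure D4:**
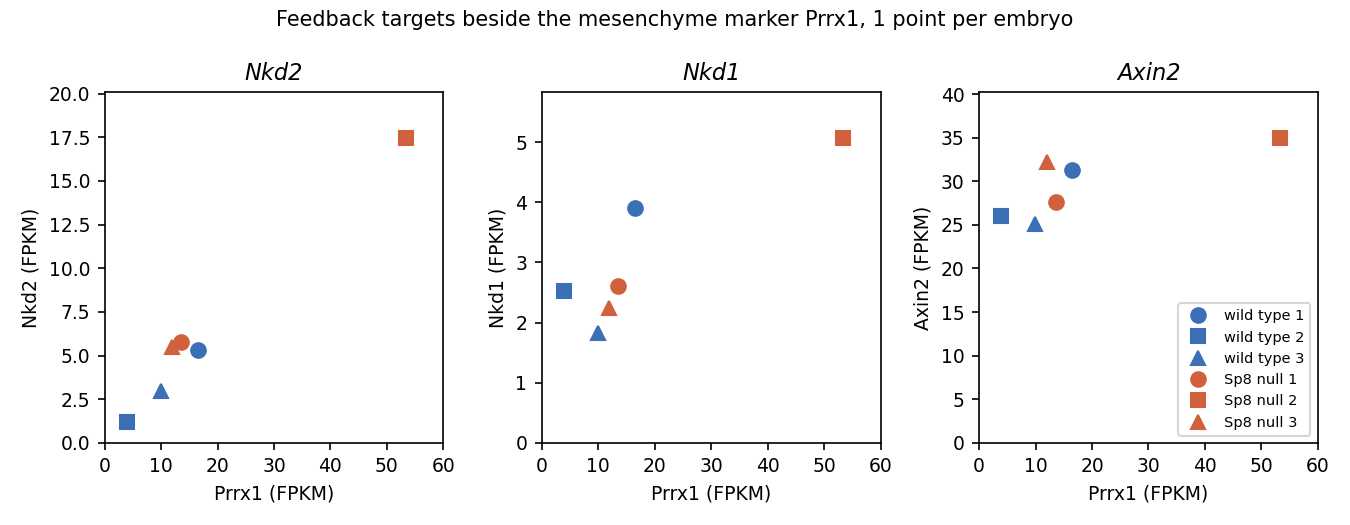
FPKM of Nkd2, Nkd1 and Axin2 (vertical axes) against FPKM of the mesenchyme gene Prrx1 (horizontal axes), 1 point per embryo. Sp8 null embryo 2 (red square) is highest on all 4 genes, and Nkd2 is lowest in wild-type embryo 2 (blue square), where Prrx1 is lowest.

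The marker lists describe the tissue that carried these values. The 12 surface ectoderm markers summed to 767 to 1004 FPKM in Sp8 null and to 898 to 994 FPKM in wild type, with Trp63 and Cdh1 among them, and 2 of the 12 were called, Tfap2a as higher and Epcam as lower. The 14 limb mesenchyme markers summed to 110, 206 and 101 FPKM in Sp8 null embryos 1, 2 and 3 and to 132, 92.7 and 99.1 FPKM in wild-type embryos 1, 2 and 3, and 3 of the 11 tested were called, 2 higher (Sox9 and Lmx1b) and 1 lower (Msx1). The median log2 fold change of these 11 was 0.90, against -0.06 over all tested genes, with 7 higher and 4 lower in mean. Twist2 and Col3a1 were also higher in Sp8 null without overlap and Pdgfra lower, but none of them was called. The part of the limb mesenchyme markers in the member results was not tested beyond the covariate above. The summed FPKM of the erythroid markers was highest in wild-type embryo 1 (428 FPKM against 11.7 to 164 FPKM elsewhere), though not every marker was highest there. No endothelial marker exceeded 3.16 FPKM and no macrophage marker 1.22 FPKM in any library.

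The summed FPKM of the 4 feedback targets was 45.7, 33.8 and 32.7 in wild-type embryos 1, 2 and 3 and 37.8, 60.4 and 43.1 in Sp8 null embryos 1, 2 and 3. The groups overlapped, with Sp8 null embryo 2 highest (mean difference 9.71 FPKM, exact two-sided permutation p = 0.3). Without Sp8 null embryo 2 the difference was 3.07 FPKM.

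Set in order of mean FPKM, the wild-type members ran Ctnnb1, Lef1, Tcf7, Tcf7l1, Axin2, Tcf7l2, Notum, Nkd2 and Nkd1. Ranges overlapped between the neighbours Tcf7 and Tcf7l1, Tcf7l1 and Axin2, Notum and Nkd2, and Nkd2 and Nkd1, and not between the others. In Sp8 null the order was Ctnnb1, Lef1, Axin2, Tcf7l1, Tcf7l2, Nkd2, Tcf7, Nkd1 and Notum. There, ranges overlapped between Axin2 and Tcf7l1, Tcf7l2 and Nkd2, Nkd2 and Tcf7, and Nkd1 and Notum. Tcf7 stood below Tcf7l2 in every null embryo, and its place after Nkd2 rested on Sp8 null embryo 2: without it the means were 9.58 FPKM for Tcf7 and 5.65 FPKM for Nkd2.

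Genes whose levels ran most like those of Tcf7 over the 6 libraries were sought among the 7358 other tested genes at a mean of 5 FPKM or more, by Pearson's r of log2(FPKM + 1). The 5 highest were Mesdc2 (r = 0.998), Rbm27 (0.998), Dcbld1 (0.997), Hk2 (0.996) and ENSMUSG00000097769 (0.996), a gene without a symbol in the table. Since all share the split between genotypes, these r values describe that split and the spread of the same 6 libraries. Their log2 fold changes were -0.71 for Mesdc2, -1.28 for Dcbld1, -1.49 for Hk2 and -0.95 for ENSMUSG00000097769 (limma adjusted p from 0.000982 to 0.00221), and -0.19 for Rbm27, which was not called (limma adjusted p = 0.124).

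Other genes of the pathway were read from 4 lists. In the destruction complex and the relay above it, 1 of 18 tested genes was called, Dvl3, which encodes a Dishevelled protein that passes the signal from the receptor. Dvl3 was at 15.8, 16.1 and 15.7 FPKM in wild-type embryos 1, 2 and 3 and at 19.6, 20.5 and 20.4 FPKM in Sp8 null embryos 1, 2 and 3 (log2 fold change 0.33, limma adjusted p = 0.0298). The call of this small rise was lost in each of the 6 fits that left out a library. It was also lost with the leading number of the library name or the mesenchyme level as a covariate, and under the embryo block. The log2 fold change itself stayed at 0.27 to 0.42 over the 17 alternatives. The list's median was -0.10, against -0.06 over all tested genes, and Tnks2, a tankyrase that marks Axin for turnover and the most abundant gene of the list, was at 113 ± 4.63 FPKM in wild type and 102 ± 11.1 FPKM in Sp8 null (SD, n = 3, limma adjusted p = 0.354).

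Among nuclear partners, 2 of 23 tested genes were called, both lower. Tle4, a Groucho corepressor that TCF/LEF proteins recruit, was at 14.4, 13.9 and 13.7 FPKM in wild-type embryos 1, 2 and 3 and at 6.53, 7.16 and 7.14 FPKM in Sp8 null embryos 1, 2 and 3. The groups lay far apart for their spread (ratio of null to wild-type means 0.496, log2 fold change -0.92, limma adjusted p = 0.000673). Sox13, an HMG box protein that binds TCF1, had a log2 fold change of -0.81, with means of 12.3 ± 1.22 FPKM in wild type and 6.69 ± 1.70 FPKM in Sp8 null (SD, n = 3, limma adjusted p = 0.0262). Sox13 was called in 9 of the 17 alternatives. The call was lost without any 1 of the wild-type embryos 1, 2 or 3 or Sp8 null embryos 1 or 2. It was also lost with no filter on low values, under the embryo block and with the mesenchyme covariate. Under median-of-ratios or upper-quartile scaling, 2 genes of the list were called higher beside these 2. The list's median was -0.06, the same as over all tested genes, and the most abundant gene, Tbl1x, differed by 0.01 on the log2 scale.

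At the adherens junction, where β-catenin links cadherins to α-catenin, 1 of 7 tested genes was called. Cdh2, N-cadherin, was at 9.14, 7.06 and 9.59 FPKM in wild-type embryos 1, 2 and 3 and at 1.10, 3.68 and 0.946 FPKM in Sp8 null embryos 1, 2 and 3. The highest null value was in Sp8 null embryo 2, the library with the highest summed mesenchyme markers, and every null value was below every wild-type value (log2 fold change -1.83, limma adjusted p = 0.0176). The call was lost without Sp8 null embryo 1, without wild-type embryo 1 or 3, and with no filter on low values. Cdh1, E-cadherin, the most abundant of the list, was at 80.1 ± 1.63 FPKM in wild type and 81.9 ± 8.31 FPKM in Sp8 null (SD, n = 3, limma adjusted p = 0.883).

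Of 19 other genes reported to respond to Wnt, a list drawn up with earlier results of these data known, 14 were tested and 6 were called, 5 lower and 1 higher, or 42.9% against 6.83% of all tested genes. Because the list was drawn up in this way, these shares cannot show whether such genes were called more often than others. The list's median was -0.04. Kremen1, Apcdd1 and Dkk1, which encode inhibitors of Wnt reception, were called lower. Inhibitors in the list did not all move this way: Dkk4 had a higher mean in Sp8 null (2.28 against 0.867 FPKM, no overlap, log2 fold change 0.81, limma adjusted p = 0.0907) and Wif1 had a log2 fold change of 0.024 (limma adjusted p = 0.981), both named after their values were seen. Wild-type and Sp8 null means were 10.9 ± 0.584 and 6.07 ± 0.771 FPKM for Kremen1, with a log2 fold change of -0.76 (limma adjusted p = 0.00646). For Apcdd1 they were 20.2 ± 2.47 and 12.3 ± 0.0963 FPKM, with a log2 fold change of -0.67 (limma adjusted p = 0.00846). For Dkk1 they were 2.29 ± 0.384 and 0.682 ± 0.168 FPKM, with a log2 fold change of -0.97 (limma adjusted p = 0.00829; SD, n = 3 for each of these genes). The call of Dkk1 was lost with no filter on low values.

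Ccnd1, which encodes cyclin D1, was at 54.6, 48.7 and 49.5 FPKM in wild-type embryos 1, 2 and 3 and at 32.5, 25.4 and 35.5 FPKM in Sp8 null embryos 1, 2 and 3, with no overlap (log2 fold change -0.70, limma adjusted p = 0.0173). That call was lost without Sp8 null embryo 1 or any 1 of the wild-type embryos, and with no filter on low values. Myc, a growth regulator named after its values were seen, was the other call (log2 fold change -0.85, limma adjusted p = 0.0314). It was called in 9 of the 16 alternatives that tested it, and was lost with all genes tested, under the embryo block, and without Sp8 null embryo 1 or 3 or any 1 of the wild-type embryos. Zfp703, a transcriptional corepressor, rose from 7.08, 9.86 and 8.96 FPKM in wild-type embryos 1, 2 and 3 to 20.9, 17.1 and 17.5 FPKM in Sp8 null embryos 1, 2 and 3 (log2 fold change 1.02, limma adjusted p = 0.00535). Tle4, Kremen1, Apcdd1 and Zfp703 were called in all 17 alternatives. The ubiquitin ligases Znrf3 and Rnf43, which are Wnt targets that remove Frizzled, did not pass, with log2 fold changes of 0.083 and 0.095 (limma adjusted p = 0.623 and 0.62). Znrf3, the most abundant of the list by its mean over the 6 libraries though below Ccnd1 in wild type, was at 47.5 ± 3.38 FPKM in wild type and 50.4 ± 4.65 FPKM in Sp8 null (SD, n = 3).

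**Figure D5:**
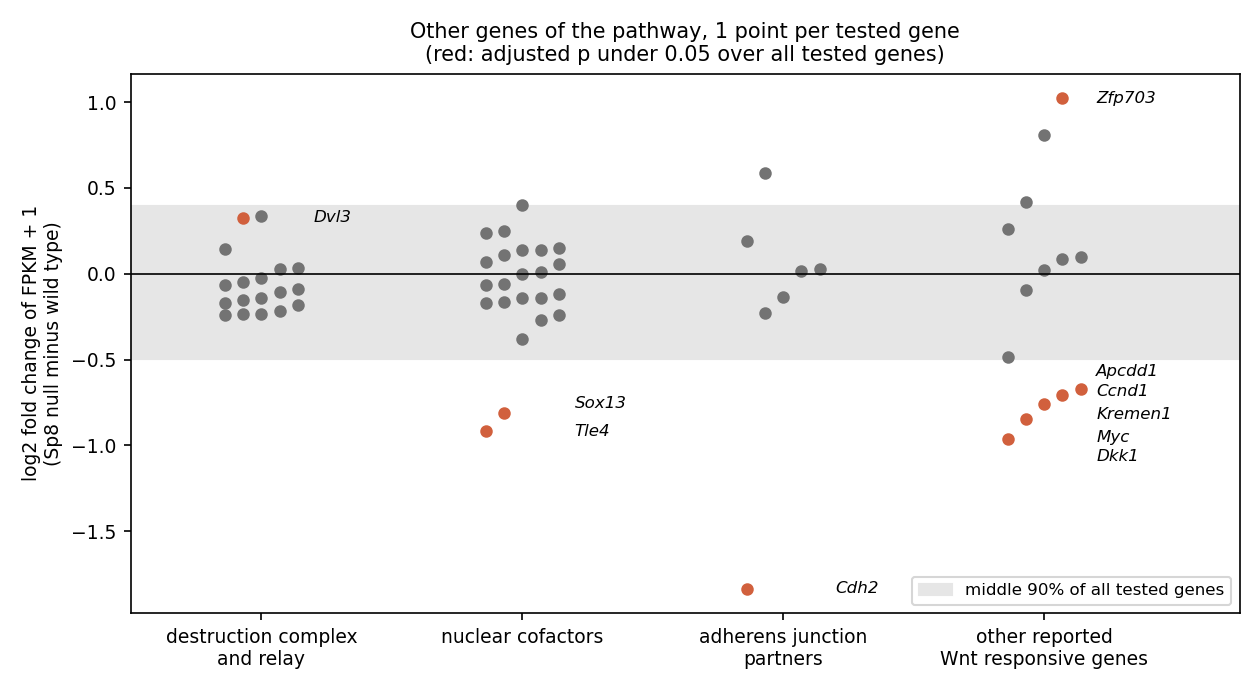
Log2 fold change of each tested gene of the 4 pathway lists (vertical axis, Sp8 null minus wild type, FPKM + 1), with calls in red and the middle 90% of all tested genes shaded, from -0.50 to 0.40. Calls are 1 of 18, 2 of 23, 1 of 7 and 6 of 14 from left to right, and 2 of the 10, Dvl3 and Zfp703, are higher.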

How the data were processed

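RNA of the forelimb ectoderm of 1 embryo per library was sequenced from a kit that does not mark strand, per the labels' protocols. The authors deposited 1 FPKM value per gene and library, with a mean signal per group, a signed fold change (a score, since lower genes are negative) and a p-value per gene. The submitters' processing notes name TopHat2, Cufflinks, SAMtools, DESeq2, FastQC and GRCm38; their roles, versions and the scale of the means are not given in the sources used here, and Ensembl 87 is named per the file headers. FPKM are not counts, so log2(FPKM + 1) was fitted with limma 3.58.1 (trend, R 4.3.3) over 12133 genes at 1 FPKM or more in at least 3 libraries, with Benjamini-Hochberg adjustment, calls at 0.05 and no covariate; the fit was tested on simulated data. Family sums and ratios were compared by exact permutation. Coordinates are from GENCODE M21. Fold changes of low genes are understated by the pseudocount. Genes named by rule are the 9 members, Sp8, in each pathway list up to 5 calls by smallest p and the most abundant gene, and the 5 genes most like a called member. Named outside this rule were Myc, Dkk4, Wif1 and Rnf43 of the pathway lists, tissue markers, and genes whose exons overlap a member. The members and lists were chosen with earlier results of these data known.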

Additional observations from a re-analysis of the deposited data

How the results depend on the processing

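Of 151 member fold changes recomputed under 17 alternatives, 143 had the sign and call given in the report and 8 turned sign, none of them called. Without 1 library, the log2 fold change ran from -0.036 (Sp8 null embryo 3 left out) to 0.14 for Ctnnb1, from -0.20 to 0.086 (Sp8 null embryo 2) for Tcf7l1 and from -0.095 (Sp8 null embryo 2) to 0.39 for Nkd1, which was at -0.0060 without wild-type embryo 3. Tcf7l1 was at 0.016 and 0.039 under median-of-ratios and upper-quartile scaling, and Tcf7l1 and Nkd1 at 0.048 and -0.13 with the mesenchyme covariate, which was chosen after seeing the data. The 829 called genes became 342 when all 27766 genes with any value were tested, 545 with the leading number of the library name as a covariate, 531 with the mesenchyme covariate, and 316 to 642 without 1 library, lowest without wild-type embryo 2. Calls split as 204 higher and 625 lower, but as 323 and 545 under median-of-ratios scaling and 363 and 507 under upper-quartile scaling. Embryo numbers did not pair the libraries (correlations of deviations -0.16, -0.14 and -0.07; 0 of 6 libraries correlated best with their own number), and with the replicate block 328 genes were called, Tcf7 among them. The TCF/LEF sum difference was 1.91 and 4.90 FPKM under the same scalings, -18.1 to 0.0148 without 1 library, and -771.0 in the authors' means per kilobase, which also gave share differences of -26.6 for Tcf7, 10.498 for Tcf7l1 and 7.76 for Tcf7l2. Without 1 library the Tcf7l1 share difference ran from -1.12 to 1.27, and the log2 ratio differences from -0.32 to 0.018 for Tcf7l1 to Tcf7l2 and from -0.13 to 0.13 for Tcf7l2 to Lef1. The 10 pathway list calls became 5 with all genes tested and 5 to 9 without 1 library, 5 without Sp8 null embryo 1 or wild-type embryo 1 or 3. The causes were not tested.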
